A study of Homo sapiens with 12 samples.

Results

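Reporter variants that stop translation at TAA, the ochre stop codon, were described together with the base that follows it and the amino acids that precede it. The members are all rows of both deposited tables whose 10-base window has TAA at bases 7 to 9 and a sense codon at bases 1 to 3 and at bases 4 to 6. They make up 9954 of 41955 rows of the EJC-independent table and 11775 of 51306 rows of the EJC-enhanced table, or 21729 of 93261 rows in all. Of the 14884 sequences that such a window allows, 66.9% and 79.1% are listed. A mean normalized count of at least 10 left 9913 and 11752 members for the comparisons, and 41 and 23 were set aside.

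Cells of the human embryonic kidney line HEK293T carried either reporter library at a single place in the genome, and were given the vehicle DMSO or 0.5 µM of SMG1i, an inhibitor of the kinase SMG1, for 24 hours before RNA was harvested. Each of the 4 groups has 3 libraries, 12 in all, and the labels do not say whether these are separate cultures. Both reporters share the window: the penultimate codon at bases 1 to 3, the last codon at bases 4 to 6, a stop codon or TGG at bases 7 to 9, and the next base at base 10. The names of the reporters refer to the exon junction complex (EJC), and where in the genome they sit is not stated here.

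Translation ends when a stop codon enters the A site of the ribosome, where the release factor eRF1 reads it together with the base after it, and eRF3 drives release with GTP. The tRNA of the last amino acid then sits in the P site and holds the finished peptide, which is cut from it by hydrolysis. Nonsense-mediated mRNA decay (NMD) degrades mRNAs on which translation ends too early. SMG1 phosphorylates the helicase UPF1 in that pathway, so blocking SMG1 lets its targets accumulate. TGG codes for tryptophan, does not end translation, and is the control codon at the same place.

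RNA levels with and without the inhibitor were compared as a log2 ratio per variant, called the response, with the sign taken so that stop codon variants are positive. The tables do not name the numerator, so this choice fixes the direction of the response, and the sizes and the contrasts between variants are what was measured. The tables hold 1 such value per variant with its standard error (SE) and no value for a single library. Errors and p-values of the means below therefore run over sequences measured in the same libraries. They do not measure the spread between replicates.

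The sequences below are the 4 next bases after TAA in 4 contexts of 2 amino acids. The last amino acids were chosen with earlier results of these data known, and the penultimate codons because the counts are high in both tables. The sequences show the smallest change that the comparisons of the next base rest on. Their last amino acids, glycine, threonine, tyrosine and phenylalanine, lie at the ends of the order described below. All are written 5′ to 3′, and the capitals mark the stop codon.
Proline-glycine before TAAA: cccggcTAAa
Proline-glycine before TAAC: cccggcTAAc
Proline-glycine before TAAG: cccggcTAAg
Proline-glycine before TAAT: cccggcTAAt
Proline-threonine before TAAA: cccactTAAa
Proline-threonine before TAAC: cccactTAAc
Proline-threonine before TAAG: cccactTAAg
Proline-threonine before TAAT: cccactTAAt
Phenylalanine-tyrosine before TAAA: ttctatTAAa
Phenylalanine-tyrosine before TAAC: ttctatTAAc
Phenylalanine-tyrosine before TAAG: ttctatTAAg
Phenylalanine-tyrosine before TAAT: ttctatTAAt
Proline-phenylalanine before TAAA: ccctttTAAa
Proline-phenylalanine before TAAC: ccctttTAAc
Proline-phenylalanine before TAAG: ccctttTAAg
Proline-phenylalanine before TAAT: ccctttTAAt

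For the EJC-independent reporter the authors' deposited table gives proline-glycine a response of 2.43 ± 0.256 (SE) before TAAA, 2.02 ± 0.0982 before TAAC, 2.13 ± 0.0962 before TAAG and 2.26 ± 0.130 before TAAT. Proline-threonine had, in the authors' deposited table, 1.97 ± 0.165, 1.87 ± 0.0988, 2.01 ± 0.191 and 2.11 ± 0.129 in the same order. Phenylalanine-tyrosine had 1.52 ± 0.0884, 1.47 ± 0.0728, 1.38 ± 0.238 and 1.25 ± 0.120 in the authors' deposited table. The glycine and threonine sequences thus lay above the tyrosine sequences at every next base, an order that the choice of last amino acids favored. Their penultimate residues differ as well, and the order of the 4 next bases differed between the panels. Proline-phenylalanine stood between the threonine and the tyrosine sequences with 1.65 ± 0.149, 1.51 ± 0.0595, 1.41 ± 0.129 and 1.48 ± 0.0828 in the authors' deposited table. The TGG sequence that matches cccggcTAAc had -0.035 ± 0.0602 in the authors' deposited table, and the one that matches ttctatTAAc had 0.049 ± 0.177.

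The EJC-enhanced reporter showed another order for these 16 sequences. Proline-glycine had 2.35 ± 0.268, 2.25 ± 0.303, 2.21 ± 0.317 and 2.69 ± 0.336 in the authors' deposited table, in the same order of next bases. Phenylalanine-tyrosine had 3.76 ± 0.654, 3.42 ± 0.476, 1.80 ± 0.514 and 3.54 ± 0.593 there, in the authors' deposited table. Before 3 of the 4 next bases the tyrosine sequence was thus the higher of the pair, and the deposited errors of these values are wide. Proline-threonine (2.32 ± 0.298, 2.28 ± 0.242, 2.04 ± 0.303 and 2.05 ± 0.273) and proline-phenylalanine (2.39 ± 0.331, 1.82 ± 0.334, 2.03 ± 0.307 and 2.23 ± 0.343) overlapped in the authors' deposited table.

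RNA of TAA variants differed between the treatments in both reporters, and TGG RNA averaged close to no difference. The mean response to TAA was 1.69 (SD 0.598 over 9913 sequences, or 3.22-fold) in the EJC-independent reporter and 2.31 (SD 0.736 over 11752, or 4.95-fold) in the EJC-enhanced reporter. TGG variants averaged -0.018 and 0.026. By the adjusted p-values of the authors' deposited table, 8440 TAA variants (85.1%) passed with a positive response in the EJC-independent reporter and 2 with a negative one, against 64.5% and 0.997% over that whole table. In the EJC-enhanced reporter 10161 of 11689 TAA variants with a p-value in the authors' deposited table (86.9%) passed with a positive response and 0 with a negative one, against 63.7% and 0.356% over the whole table. The positive shares by the authors' deposited table were 83.0% and 85.2% for TAG, 86.5% and 86.3% for TGA, and 4.09% and 2.76% for TGG.

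Depth differed between the 4 tetranucleotides and between the reporters. TAAC was the deepest, with a median mean normalized count of 398 and 232.1 in the EJC-independent and EJC-enhanced tables, and TAAA the shallowest, with 172.7 and 110.4. TAAG had 206.9 and 122.8, and TAAT had 251.6 and 159.6. Coverage followed: 81.6% and 91.3% of the possible TAAC sequences are listed, against 57.1% and 70.1% of those with TAAA. The median SE of a single TAA variant was 0.324 and 0.547, and the squared SE amounts to 75.2% and 79.2% of the variance among TAA variants. Among variants with a mean count from 10 to 50 the SD was 1.07 in the EJC-independent reporter, and from 1000 upwards it was 0.255, while the mean was 1.69 and 1.65. The mean of the EJC-enhanced reporter was 2.16 at counts from 10 to 50, 2.34 from 50 to 200 and 2.30 from 1000 upwards. That step between the lowest bands is larger than any difference of next bases after TAA in that reporter, given below with counts of 50 or more as well.

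The next base moved the response to TAA by at most 0.081 log2 units in the EJC-independent reporter. Mean responses were 1.74 ± 0.0143 (SE) for TAAA, 1.66 ± 0.00975 for TAAC, 1.69 ± 0.0141 for TAAG and 1.68 ± 0.0110 for TAAT. The middle 90% of variants ran from 0.760 to 2.84 for TAAA and from 0.883 to 2.54 for TAAC, so the 4 distributions lay almost on top of each other. Next bases were compared within the same 6 random bases by a linear model over all 39236 variants of the table, with errors clustered by last codon. TAAA exceeded TAAC by 0.081 (95% interval 0.051 to 0.112, adjusted p = 2.1e-05 in that linear model) and TAAT by 0.059 (0.024 to 0.095, adjusted p = 0.0043). The other 4 pairs missed the threshold, with differences from -0.037 (TAAC minus TAAG) to 0.044 (TAAA minus TAAG). Pairs past an adjusted p of 0.05 were thus 2 of 6 after TAA, against 10 of 24 (41.7%) over TAA, TAG, TGA and TGG. By codon, 4 of 6 passed after TAG, 4 of 6 after TGA and 0 of 6 after TGG. A exceeded C by 0.089 after TAG and by 0.096 after TGA. It exceeded T by 0.054 and 0.051 there, and all of these passed.

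Where G stands in that order depended on the weight given to thinly counted variants. Against the mean of the other 3 bases after TAA, G had an effect of 0.0031 (-0.029 to 0.036), and A had 0.061, C -0.047 and T -0.018. With a minimum mean count of 50, G had 0.042 (0.018 to 0.067, adjusted p = 0.0029), next to 0.038 for A, -0.047 for C and -0.034 for T. Weighting each variant by the inverse of its squared SE gave 0.050 for G, 0.034 for A, -0.057 for C and -0.027 for T. With these settings 4 and 5 of the 6 pairs passed, and the sign of TAAA minus TAAG turned to -0.0031 and -0.011.

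A purine (A or G) after TAA was therefore set against a pyrimidine (C or T), a comparison added after these effects had been seen. The purine exceeded the pyrimidine by 0.048 (0.026 to 0.070, adjusted p = 9.7e-05), by 0.060 with counts of 50 or more and by 0.063 with inverse variance weights. After TGA the difference was 0.057 (0.034 to 0.080), after TAG it was 0.024 (0.0017 to 0.046), and after TGG it was -0.024 (-0.045 to -0.0024). TAA differed from TGG by 0.072 (0.040 to 0.104, adjusted p = 9.7e-05) in this respect. It differed from TAG by 0.024 (-0.0084 to 0.057, adjusted p = 0.17), and by 0.041 (0.020 to 0.061, adjusted p = 0.00032) with counts of 50 or more. From TGA the difference was -0.0089 (-0.036 to 0.018).

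G after the stop codon was where TAA and TAG stood furthest apart. After TAG, G had the effect -0.048 (-0.073 to -0.022) on the EJC-independent response. The G effect of TAA exceeded that of TAG by 0.051 (0.0091 to 0.092, adjusted p = 0.054), which missed the threshold. It was 0.071 (0.036 to 0.106, adjusted p = 0.00056) with counts of 50 or more and 0.088 (0.065 to 0.111, adjusted p = 2.2e-09) with inverse variance weights. Of the 12 differences of a next-base effect between TAA and another codon, 3 passed (25%). All of these were against TGG: A by 0.083 (adjusted p = 0.0034), C by -0.053 (adjusted p = 0.0037) and T by -0.044 (adjusted p = 0.045). With inverse variance weights 7 of the 8 differences from TAG or TGA passed, against 0 of 8 with equal weights, where 1 had an unadjusted p under 0.05.

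In the EJC-enhanced reporter 1 pair of next bases differed after TAA. Means were 2.31 ± 0.0152 for TAAA, 2.33 ± 0.0112 for TAAC, 2.27 ± 0.0150 for TAAG and 2.31 ± 0.0135 for TAAT. TAAC exceeded TAAG by 0.065 (0.024 to 0.106, adjusted p = 0.014), and the other 5 pairs missed the threshold, against 4 of 24 past it (16.7%) over all 4 codons. After TAG 3 of 6 passed, and after TGA and TGG 0 of 6 each. The difference between TAAC and TAAG fell to 0.020 (-0.021 to 0.060, adjusted p = 0.59) with counts of 50 or more. The purine minus pyrimidine difference was -0.033 (-0.066 to -0.00058, adjusted p = 0.22). None of the 12 differences of a next-base effect from another codon passed (0%) in the linear model, and 1 of 12 had an unadjusted p under 0.05. Against TAG, the G effect of TAA differed by 0.037 (-0.013 to 0.086, adjusted p = 0.36) and the A effect by -0.055 (-0.113 to 0.0025, adjusted p = 0.36). For no pair of next bases after TAA was the contrast shown to differ between the reporters: 0 of 6 passed, and 0 of 6 had an unadjusted p under 0.05. Over the 4 codons 4 of 24 passed (16.7%). All 4 were after TGG, with 0 of 6 after TAG and 0 of 6 after TGA.

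TAA was weaker than TGA and slightly stronger than TAG in the EJC-independent reporter. Averaged over next bases, TAA stood 0.152 below TGA (difference -0.152, -0.172 to -0.133) and 0.055 above TAG (0.039 to 0.071). It stood 1.71 above TGG (1.66 to 1.76). The deficit against TGA held at each next base, with -0.151 for A, -0.136 for C, -0.162 for G and -0.159 for T, each with an interval below 0. The excess over TAG was 0.093 (0.059 to 0.128) with G, 0.049 with C and 0.037 with T, all past the threshold, and 0.042 (-0.0022 to 0.086, adjusted p = 0.062) with A. The excess with T fell to 0.012 with counts of 50 or more and to 0.0097 with inverse variance weights, and missed the threshold in both. Of the 12 comparisons of TAA with another codon at a given next base, 11 passed (91.7%).

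In the EJC-enhanced reporter TAA and TGA were not told apart. The mean difference was 0.0019, with an interval of -0.019 to 0.023, so a difference as large as the -0.152 of the other reporter lies outside it. By next base, TAA minus TGA ran from -0.024 (A) to 0.024 (C), and 0 of 4 passed in the linear model or had an unadjusted p under 0.05. TAA exceeded TAG by 0.043 (0.023 to 0.062). That excess passed with C (0.061) and with G (0.070, 0.030 to 0.110), and did not pass with T (0.039) or with A (0.0014, -0.051 to 0.054). It exceeded TGG by 2.27 (2.26 to 2.29), with 2.23 for G and 2.29 for each of the other bases. In all, 6 of the 12 comparisons passed (50%).

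Single pairs of sequences show how small these differences are beside the error of a variant. Among 7723 pairs of a TAA and a TGA variant with the same other bases in the EJC-independent reporter, the TAA variant was lower in all but 37.4%. It was lower by more than 1.96 combined SE in 9.92% and higher by as much in 2.30%. For 7773 pairs with TAG, TAA was higher beyond that limit in 5.51% and lower in 3.67%. For 8210 pairs with TGG, TAA was higher beyond it in 79.1%. The 10111 pairs with TGA in the EJC-enhanced reporter were split evenly, with 3.77% higher and 3.69% lower.

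The last amino acid before TAA moved the EJC-independent response far more than the next base did. Glycine, the smallest amino acid, stood 0.436 above the mean of the other sense codons (0.376 to 0.497, adjusted p = 1.5e-42 in a linear model with the penultimate codon and the next base as covariates). Threonine stood 0.365 above (0.315 to 0.415, adjusted p = 2.9e-43). Tyrosine, an aromatic residue, stood 0.310 below (-0.310, -0.365 to -0.254, adjusted p = 2.6e-26). From tyrosine to glycine the adjusted means ran from 1.40 to 2.11, and the effects spanned 0.746, or 1.68-fold.

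Of 20 amino acids in last position before TAA, 4 passed as higher and 8 as lower, against 15% higher and 31.2% lower over the 80 effects of the 4 codons. Serine (0.091) and the cyclic residue proline (0.050) completed the higher group. Phenylalanine (-0.234) and histidine (-0.233), both with ring side chains, followed tyrosine from below, and then glutamine (-0.210), cysteine (-0.186), methionine (-0.177), asparagine (-0.124) and leucine (-0.115). The third aromatic residue, tryptophan, did not pass (-0.092, -0.207 to 0.023). The acidic residues aspartate (0.050) and glutamate (0.033) and the basic residues lysine (-0.0012) and arginine (-0.016) did not pass either.

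Synonymous codons of glycine, threonine and tyrosine lay close together. The 4 glycine codons were the 4 highest of 61 before TAA, with 2.10 ± 0.0615 (SE) for GGG, 2.10 ± 0.0599 for GGT, 2.11 ± 0.0669 for GGA and 2.13 ± 0.0518 for GGC. The 4 threonine codons ran from 2.00 (ACA) to 2.07 (ACG). At the low end stood TAT with 1.37 ± 0.0470 and TAC with 1.43 ± 0.0381, both for tyrosine, and TTT for phenylalanine with 1.44 ± 0.0299. Other amino acids spread more widely over their codons. The 6 arginine codons ran from 1.50 ± 0.0986 (AGG) to 1.81 ± 0.0345 (CGT). The 4 alanine codons ran from 1.59 to 1.80 and the 4 valine codons from 1.59 to 1.77. The leucine codon TTA had 1.42 ± 0.0384, and the other 5 leucine codons ran from 1.59 (TTG) to 1.69 (CTC). Differences between amino acids made up 89.6% of the variance of the 61 codon means before TAA. The share was 86.5% before TAG, 93.7% before TGA and 46.4% before TGG.

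The order of last amino acids before TAA was close to that before the other stop codons. Glycine had the effects 0.436, 0.424 and 0.445 before TAA, TAG and TGA, threonine had 0.365, 0.370 and 0.416, and tyrosine had -0.310, -0.270 and -0.378. Before TGG the same 3 had 0.038, -0.030 and -0.059, and none of the 20 amino acids passed there in the linear model, although 3 had an unadjusted p under 0.05. The span over amino acids was 0.746 for TAA, 0.694 for TAG, 0.822 for TGA and 0.152 for TGG. A joint Wald test over all 20 amino acids, added after the data were seen, gave F = 0.761 for TAA against TAG (adjusted p = 0.82 in the linear model), F = 1.28 against TGA (adjusted p = 0.45) and F = 25.8 against TGG.

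Of 60 single differences of a last amino acid effect between TAA and another codon, 10 passed (16.7%). Against TGG 9 passed, with glycine (0.398, 0.316 to 0.481), threonine (0.395) and serine (0.101) above, and histidine (-0.258), tyrosine (-0.251), glutamine (-0.223), phenylalanine (-0.185), cysteine (-0.158) and leucine (-0.138) below. Against TGA only leucine passed: its effect was -0.115 before TAA and -0.180 before TGA, a difference of 0.065 (0.018 to 0.113, adjusted p = 0.044). This difference also passed with counts of 50 or more (0.072) and with inverse variance weights (0.078). Against TAG 0 of 20 passed in the linear model, and 1 had an unadjusted p under 0.05, again leucine (-0.051, -0.101 to -0.0010).

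The lead of glycine over tyrosine was present after each next base. Glycine minus tyrosine was 0.743 ± 0.0900 (SE) for TAAA, 0.803 ± 0.0699 for TAAC, 0.650 ± 0.111 for TAAG and 0.567 ± 0.0752 for TAAT in the EJC-independent reporter. For TAAC that compares 167 glycine variants at a mean of 2.13 with 108 tyrosine variants at 1.32. For TAAT it compares 115 at 2.00 with 89 at 1.43. A test of whether last amino acids act differently before the 4 next bases did not pass for TAA (F = 1.12, adjusted p = 0.39 in the linear model). In the same order of next bases, the lead was 0.667, 0.723, 0.596 and 0.633 after TAG, and 0.724, 0.833, 0.668 and 0.828 after TGA.

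No last amino acid passed before TAA in the EJC-enhanced reporter. The share called over the 80 effects of the 4 codons there was 0% in each direction in the linear model, with 1 of 20 effects before TAA and 7 of 80 in all at an unadjusted p under 0.05. Effects before TAA ran from -0.096 for tryptophan to 0.148 (0.054 to 0.242, adjusted p = 0.16) for asparagine, a span of 0.244. Glycine had 0.036 (-0.034 to 0.106), threonine 0.046 (-0.0060 to 0.098) and tyrosine 0.035 (-0.041 to 0.111). Glycine minus tyrosine was 0.0086 ± 0.112 for TAAA, -0.068 ± 0.0840 for TAAC, 0.028 ± 0.109 for TAAG and 0.102 ± 0.103 for TAAT. Amino acids made up 37.4% of the variance among the 61 codon means before TAA. The share was 34.3% before TAG, 35.0% before TGA and 53.7% before TGG, so TAA did not exceed the control.

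Asparagine was the last amino acid with the largest effect there. Its codon AAT had the highest mean of the 61 at 2.51 ± 0.0831, and AAC had 2.37 ± 0.0594. The AAT mean includes tctaatTAAg, the highest TAA variant of this reporter at 7.23 ± 0.783 in the authors' deposited table. The part of that variant in the mean was not tested. Before TAG and TGA asparagine ranked 14 and 15 from below, with adjusted means of 2.26 and 2.33, against 2.44 before TAA. Its effect before TAA exceeded that before TAG by 0.137 (adjusted p = 0.48 in the linear model), which did not pass. The excess over TGA was 0.114 (adjusted p = 0.64) and did not pass either. Against TGG the asparagine effect differed by 0.212 (0.088 to 0.336, adjusted p = 0.048), the only 1 of 60 differences past the threshold (1.67%). With inverse variance weights asparagine itself passed as higher (0.108, adjusted p = 0.045). With counts of 50 or more it had 0.164 (adjusted p = 0.057). The test of last amino acid by next base gave F = 1.13 (adjusted p = 0.31), and F = 1.66 (adjusted p = 0.0058) with counts of 50 or more.

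The penultimate amino acid had a smaller effect than the last in the EJC-independent reporter, with a span of 0.326 before TAA. Of 20 amino acids 3 passed as higher, the branched residues valine (0.166, 0.106 to 0.225) and isoleucine (0.115) and the cyclic residue proline (0.076), against 13.8% over the 80 effects. As lower passed 4, the basic residues arginine (-0.161, -0.204 to -0.118) and histidine (-0.080) and the polar residues glutamine (-0.116) and serine (-0.073), against 15%. Other members of these classes did not pass. They are leucine among the branched and lysine among the basic residues, with adjusted means of 1.69 each, and the polar residues threonine, asparagine and cysteine. Codons ran from AGA for arginine at 1.42 ± 0.0704 to ATA for isoleucine at 1.90 ± 0.0645, and the 4 valine codons from 1.84 to 1.88. Before TAG and TGA arginine had -0.117 and -0.220, and valine had 0.161 and 0.152.

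Phenylalanine and tyrosine, both low as the last residue, had -0.014 (-0.059 to 0.031) and 0.048 (-0.020 to 0.116) as the penultimate residue before TAA. Glycine had 0.061 (0.0043 to 0.119, adjusted p = 0.11) there, and threonine had 0.030. Penultimate tyrosine passed as higher before TAG (0.087) and before TGA (0.138). Differences between TAA and another codon passed for 3 of 60 penultimate effects (5%), all against TGG: arginine (-0.131), glutamine (-0.145) and valine (0.173). Against TAG and TGA 0 of 40 passed in the linear model, and 1 had an unadjusted p under 0.05.

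Lysine, a basic residue, was the single penultimate amino acid that passed before TAA in the EJC-enhanced reporter. Its effect was -0.223 (-0.347 to -0.099, adjusted p = 0.017), from codon means of 1.99 ± 0.0870 for AAG and 2.18 ± 0.0922 for AAA. That is 1 effect of 80 called lower (1.25%), beside 1 called higher (1.25%), which is proline before TAG. With counts of 50 or more lysine had -0.211 (adjusted p = 0.081), and with the matched TGG response subtracted it had -0.095 (adjusted p = 0.82). Before TGA and TAG penultimate lysine ranked 1 and 2 from below in the EJC-enhanced reporter. Its adjusted mean was 2.14 before each of them, against 2.08 before TAA, and neither effect passed. In the EJC-independent reporter penultimate lysine had -0.017 (-0.117 to 0.083) before TAA. None of the 60 penultimate differences from other codons passed (0%) in the linear model, and 2 had an unadjusted p under 0.05.

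Contexts before TAA were also grouped into lists by the kind of last residue and by base composition, and a list can mix high and low amino acids, as the polar list does with threonine and glutamine. In the EJC-independent reporter the median response was 1.66 over all TAA variants, 1.44 for the 904 with an aromatic last residue and 2.08 for the 461 with glycine. It was 1.63 for aliphatic, 1.61 for basic, 1.69 for acidic and 1.74 for polar last residues, and 1.72 for proline. Random bases with 5 or 6 G or C had 1.74 (1423 variants), those with 5 or 6 A or T had 1.57 (720 variants), and AA directly before TAA had 1.53 (304 variants). Variants with ATG in the random bases had 1.61. In the EJC-enhanced reporter the same medians were 2.29 over all, 2.29 for aromatic, 2.35 for glycine, 2.28 for the G or C rich, 2.31 for the A or T rich and 2.23 for AA before TAA. These lists differ in depth, with median counts of 429 and 131.6 for the G or C rich and the A or T rich lists of the EJC-independent reporter.

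Sequences at the ends of the range had large errors. Mean counts reached 100 for 7047 TAA variants of the EJC-independent reporter, of which the lowest in the authors' deposited table was gcagtcTAAc at -0.39 ± 0.480, with a mean count of 141.5. Next from below in the authors' deposited table came tctggtTAAg (-0.054 ± 0.511), tctgccTAAg (0.089 ± 0.912), agatccTAAg (0.13 ± 0.552) and aagcttTAAg (0.16 ± 0.781). The highest in the authors' deposited table were gtgcgcTAAa (3.67 ± 0.382), cttggtTAAt (3.65 ± 0.488), ttaacgTAAa (3.54 ± 0.468), cttggcTAAa (3.49 ± 0.418) and gattcgTAAg (3.44 ± 0.582). In the EJC-enhanced reporter gcagtcTAAc had 3.14 ± 0.434 and gtgcgcTAAa had 1.77 ± 0.755 in the authors' deposited table, so neither extreme recurred.

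The 5 lowest of 7479 such variants in the EJC-enhanced reporter were cgacagTAAg (-1.94 ± 1.82), ttgggcTAAa (-0.71 ± 1.67), aacgccTAAa (-0.36 ± 0.668), cccaggTAAg (-0.33 ± 0.637) and gtccaaTAAg (-0.31 ± 0.709) in the authors' deposited table. The 5 highest in the authors' deposited table were tctaatTAAg (7.23 ± 0.783), tttctgTAAa (6.55 ± 1.14), gtgtgcTAAg (6.02 ± 0.996), accataTAAa (5.91 ± 0.931) and ctaagcTAAg (5.90 ± 1.40). Of these 10, cgacagTAAg, ttgggcTAAa, tttctgTAAa and ctaagcTAAg have no adjusted p-value there. Among the 11752 TAA variants used in this reporter 63 lack one. All 10 have A or G as the next base, and TAAA and TAAG are the 2 shallowest tetranucleotides. The mean counts of these 10 run from 101.1 to 470, and the part of depth was not tested. In the EJC-independent reporter tctaatTAAg had 1.37 ± 0.0759 at a mean count of 4728 in the authors' deposited table, and cgacagTAAg had 1.29 ± 0.423.

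Across the 9054 TAA sequences measured in both reporters Pearson's r of the responses was 0.0034 and Spearman's rho 0.0043, given as descriptions of sequences that share the libraries of each table. For TAG and TGA r was 0.011 and 0.0059. Across the 711 TAA sequences with a mean count of 1000 or more in both tables r was -0.051. The EJC-enhanced values of these 711 have a median SE of 0.310 and an SD of 0.278, so their spread is no larger than their error, and r says little about whether single sequences rank alike. Differences of amino acid effects between reporters were tested on the variants in both tables. Of 20 last amino acids before TAA 7 passed as more positive in the EJC-enhanced reporter and 4 as more negative, against 27.5% and 16.2% over the 80 effects. At a given next base, TAA minus another codon differed between the reporters in 8 of 12 comparisons (66.7%), all 4 with TGA, all 4 with TGG and none with TAG. Of 20 penultimate amino acids 1 and 2 passed, against 5% and 7.5%.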

How the data were processed

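RNA of reporter variants was counted in 12 libraries of HEK293T cells. What the authors deposited is a table for each reporter, with a row for each variant and no value for a library. Columns hold, per the file headers, the mean normalized count (a signal averaged by the authors over the libraries), the log2 fold change and its standard error, the Wald score, and the p-value and its adjusted form. The submitters' processing notes name DESeq and DESeq2. Versions and the steps from reads to variants were not given in the sources used here. No column names the numerator of the fold change. As deposited, stop codon variants are negative and TGG variants lie around 0, so the sign was reversed here. With the other numerator every sign would turn. The tables were normalized apart, so only contrasts within a table are compared between reporters.

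Rows with a stop codon in the random bases (2514 and 3573) were left out, as were rows below a mean count of 10 (215 and 139), which left 39236 and 47615 variants. Depth per library is unknown. The mean counts of the variants used sum to 30335100 and 18512200. A variant's standard error has a median of 0.319 and 0.517. Next bases and stop codons were compared by ordinary least squares with the 6 random bases absorbed and errors clustered by the 61 last codons. Amino acid effects came from a model with last codon, penultimate codon and next base for each codon at bases 7 to 9, with errors clustered by the random bases. An effect is the mean of an amino acid's codons minus the mean of the other sense codons. Benjamini-Hochberg adjustment ran within each family: 24 pairs of next bases, 12 comparisons of codons by next base, 12 differences of next-base effects, 80 amino acid effects and 60 differences of these, per reporter. Differences between reporters were fitted on 35994 variants in both tables. The models were tested on simulated data in 20 runs. Alternatives were a mean count of 50 or none, inverse variance weights, subtraction of the matched TGG variant, clustering by random bases, and an adjusted p under 0.01. The purine comparison and the joint test over amino acids were added after the data were seen.

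The members, the amino acids and the lists were chosen with earlier results of these data known. Contexts named follow a rule: every codon with each next base; glycine, threonine and tyrosine, the 4 highest and 4 lowest last amino acids and codons; amino acids whose effect differs from TAG or TGA; the 3 highest and 3 lowest penultimate amino acids with arginine, valine and lysine; the 5 highest and 5 lowest variants whose mean count reaches 100; and, for the last codons GGC, ACT, TAT and TTT, the random bases with the highest summed count. Other amino acids are given to account for all 20. Analyses used Python 3.11.15 with numpy 2.4.6, pandas 2.3.3, scipy 1.17.1 and statsmodels 0.14.6.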

Additional observations from a re-analysis of the deposited data

Results flagged for a closer look

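The following differed between the 2 reporters by a test of the difference itself, in the linear model on variants measured in both tables. Values are effects in the EJC-enhanced minus effects in the EJC-independent reporter, in log2 units, with 95% intervals. TAA minus TGG differed by 0.559 (0.507 to 0.610). TAA minus TGA differed by 0.152 (0.122 to 0.183), from -0.152 in the EJC-independent reporter to 0.0019 in the EJC-enhanced reporter over all variants of each. TAA minus TAG differed by -0.025 (-0.050 to -0.00062, adjusted p = 0.045), and by -0.013 (adjusted p = 0.16) with inverse variance weights.

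Last amino acids are grouped here by their EJC-independent effect before TAA. That effect also enters the difference, so the grouping itself favored the directions below. The SD of the amino acid effects before TAA was 0.187 in the EJC-independent and 0.052 in the EJC-enhanced reporter. Those that raised the EJC-independent response had lower effects in the EJC-enhanced reporter. Threonine differed by -0.345 (-0.421 to -0.269), glycine by -0.336 (-0.454 to -0.218), serine by -0.147 (-0.210 to -0.084) and proline by -0.115 (-0.164 to -0.065). Of the 8 that lowered it, 7 had higher effects: asparagine by 0.378 (0.229 to 0.527), tyrosine by 0.347 (0.253 to 0.440), histidine by 0.192 (0.114 to 0.269), glutamine by 0.169 (0.055 to 0.283), phenylalanine by 0.168 (0.096 to 0.240), cysteine by 0.148 (0.045 to 0.251) and leucine by 0.095 (0.037 to 0.154). The other, methionine, differed by 0.244 (-0.011 to 0.499, adjusted p = 0.13). As penultimate residues, arginine differed by 0.162 (0.075 to 0.248), valine by -0.180 (-0.271 to -0.088) and proline by -0.078 (-0.129 to -0.028).

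Over all variants of each table, rather than those in both, asparagine had an effect of -0.124 in the EJC-independent reporter and of 0.148 in the EJC-enhanced reporter, which did not pass there. The EJC-enhanced table is the shallower of the pair, with a median count of 152.3 for a TAA variant against 256.8, and the part of depth in these differences was not tested.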

How the results depend on the processing

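No paired analysis was possible because the tables hold no value per library, and for the same reason no replicate block could be fitted and no replicate could be left out. Of 144 alternative values of the main results 110 stayed as they were; the others follow, and the cause of each change was not tested. In the EJC-independent reporter the pairs of next bases past the threshold after TAA (2) became 4 with counts of 50 or more, 5 with inverse variance weights, 4 with the matched TGG subtracted and 4 with clustering by random bases. TAAA minus TAAG turned to -0.0031 and -0.011 with the first 2 settings. With those 2 settings, next-base effects that differ from TAG or TGA (0) became 2 and 7, last amino acids that do so (1) became 3 and 2, penultimate ones (0) became 1 and 3, penultimate ones that differ from TGG (3) became 6 and 10, penultimate amino acids called higher (3) became 5 and 5, and penultimate lysine turned to 0.0015 and 0.024. With the matched TGG subtracted, 1 penultimate amino acid was called lower in place of 4.

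In the EJC-enhanced reporter counts of 50 or more left 0 pairs of next bases, 0 penultimate amino acids called lower and 0 last amino acids that differ from TGG (1 each before), and gave 1 next-base effect that differs from TAG or TGA. They turned TAA minus TGA to -0.0037, TAAA minus TAAC to 0.013, TAAA minus TAAT to 0.021, TAAA minus TAGA to -0.037, TAAT minus TGAT to -0.00028, last lysine to 0.12, penultimate methionine to 0.045 and the purine difference to 0.00082, and raised the test of last amino acid by next base to F = 1.66. Inverse variance weights gave 2 next-base effects that differ from TAG or TGA, 1 last amino acid called higher and 1 lower, 2 last amino acids and 1 penultimate that differ from TGG, and 1 penultimate called higher and 2 lower. They turned TAA minus TGA to -0.0011, TAAA minus TAAT to 0.012, TAAA minus TAGA to -0.010, TAAG minus TGAG to 0.0012 and last lysine to 0.0062. No count minimum gave 1 penultimate amino acid called higher. The matched TGG subtracted left 0 called lower, and turned last glycine to -0.029 and penultimate valine to -0.029.

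For the difference between reporters, counts of 50 or more turned TAAA minus TAAC to 0.0027, TAAA minus TAAG to 0.050 and TAAC minus TAAT to -0.0049. Inverse variance weights turned TAAA minus TAAG to 0.033, gave 2 pairs of next bases in place of 0 and 2 penultimate amino acids called higher in place of 1, and moved TAA minus TAG to -0.013, no longer past the threshold. The share of TAA variants called with a positive response stayed between 77.5% and 94.0% in both reporters. Glycine, threonine and tyrosine as last residues kept their direction and passed in the EJC-independent reporter under every alternative run. Counting error limits single variants, and intervals cover the spread between sequences only.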

Other observations

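The arginine codon AGG had the lowest mean of the 61 last codons before TAA in the EJC-enhanced reporter, at 2.03 ± 0.0817 (SE, 125 variants). Its values by next base were looked at after this had been seen, and no test was made. Before TAAG it had 1.59 ± 0.167 (29 variants), against 1.96 ± 0.189 before TAAA (20 variants), 2.11 ± 0.137 before TAAC (45 variants) and 2.42 ± 0.146 before TAAT (31 variants). Before TAGG it had 1.88 ± 0.174 and before TGAG 2.55 ± 0.188. TAGG was not the lowest after TAG in this reporter, as AGG had 1.87 ± 0.344 before TAGA (14 variants). In the EJC-independent reporter AGG before TAAG had 1.11 ± 0.381 over only 7 variants, the lowest of its 4 next bases there. It had 1.16 ± 0.237 before TAGG (14 variants), likewise the lowest of the 4 after TAG, and 1.99 ± 0.154 before TGAG (19 variants). The median counts of these AGG variants before TAAG are 43.1 and 71.9, below those of TAA variants as a whole. One of them is cccaggTAAg, which is among the 5 lowest single variants of the EJC-enhanced reporter.

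The test of last amino acid by next base on the difference between the reporters passed for TAA (F = 1.53, adjusted p = 0.025). It did not pass for TAG (adjusted p = 0.19), TGA (adjusted p = 0.16) or TGG (adjusted p = 0.19). That the result is particular to TAA was not tested. In the EJC-enhanced reporter by itself the same test passed for TGG only.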
